A study of Mus musculus with 2 samples.

Results

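Effector CD8 T cells were studied in mouse livers seeded with metastases of the B16F10 melanoma line. They were picked by their own transcripts: a cell passed with at least 1 UMI (unique molecular identifier, 1 counted RNA molecule) of Cd8a or Cd8b1, at least 1 of Cd3d, Cd3e or Cd3g, none of Cd4 or Cd79a, and at least 3 over Ccl5, Gzma, Gzmb, Gzmk and Nkg7. There were 433 such cells in the Vsig4 KO library and 437 in the WT library, 870 of 12618 cells in all. The libraries were 1 per genotype, both of live CD45+ singlets sorted by flow cytometry from the livers of Vsig4-/- and of WT mice, read with the 10x Genomics 5′ chemistry. Both genotypes carried the tumour and went through the same collagenase and DNase digestion. The labels give no age, no number of mice per library and no cell type to which the knockout is limited. With 1 library per genotype no test is possible and no p-value is given. Every interval is a 95% interval of counting error that leaves out the differences between mice, sorts and libraries. Intervals of gene levels and of their ratios count each UMI as independent, so they also leave out the differences between cells.

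Effector CD8 T cells read foreign or tumour peptides on MHC class I through the T cell receptor (TCR) and kill with granule proteases, the granzymes, which reach the target through the pore protein perforin. Chemokines, interferon gamma and tumour necrosis factor are their secreted products, and long stimulation brings inhibitory receptors such as PD-1. The series title ties the question to VSIG4, a complement receptor on the liver's own macrophages, the Kupffer cells, and to CD5, an inhibitory co-receptor on T cells that sets the strength of TCR signalling.

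Most of the cells carried T cell RNA outside the rule's own genes, and some also held RNA of other lineages. The Vsig4 KO library held 25119175 UMIs in 5799 barcodes and the WT library 28537154 UMIs in 6929 barcodes. The effector CD8 T cells had medians of 4948 UMIs and 1822 genes in the Vsig4 KO library, against 4308 UMIs and 1657 genes in the WT library, so the Vsig4 KO cells were read more deeply. Outside the rule's own genes, Trac, the constant gene of the TCR alpha chain, had a UMI in 70.9% of Vsig4 KO and 68.2% of WT cells, and Trdc, that of the delta chain, in 15 and 23 cells. The B cell gene Ms4a1 was at 2 UMIs in the Vsig4 KO cells, against 4 UMIs in the WT cells. The NK cell gene Ncr1 had 38 UMIs in 16 cells of each library, and the hepatocyte gene Alb had 1 UMI in the Vsig4 KO and 4 UMIs in the WT cells. Other markers were seen more often. Cst3, listed for dendritic cells, had a UMI in 38.6% of Vsig4 KO and 38.2% of WT cells. Cd74, listed for B cells, had one in 26.6% and 22.0%. Lyz2, of monocytes and macrophages, was in 6.47% and 10.1%, and Klrb1c, of NK cells, in 9.24% and 6.18%. Xist was at 0 UMIs in both libraries. Vsig4 itself had 3 UMIs in the whole Vsig4 KO library and 43 in the WT library. No effector CD8 T cell shared its barcode with one of the other library, although 54 barcodes occurred in both.

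Effector CD8 T cells made up 7.54% (6.87 to 8.25) of Vsig4 KO cells and 6.36% (5.79 to 6.96) of WT cells, a ratio of 1.19 (1.04 to 1.36). Within the CD8 T cells they were 75.4% (71.7 to 78.9) of 574 Vsig4 KO cells and 72.0% (68.2 to 75.5) of 607 WT cells. When every cell was first thinned to 1000 UMIs, the share of CD8 T cells that passed was 54.4% of 307 in the Vsig4 KO library and 53.7% of 354 in the WT library. The share among CD8 T cells therefore differed by less than its counting error, both with and without thinning. The share among all cells also depends on the sort for CD45 and on the digestion.

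The sum of the 5 effector genes was far above the threshold in most cells. Its median was 33 UMIs in Vsig4 KO and 29 UMIs in WT effector cells, and its highest value was 643 UMIs in a Vsig4 KO cell and 385 UMIs in a WT cell. Cells with 10 or more UMIs were 70.9% (66.4 to 75.1) of the Vsig4 KO and 76.9% (72.6 to 80.8) of the WT cells. Just inside the threshold, 43 Vsig4 KO and 33 WT cells held 3 UMIs, and just outside it 40 Vsig4 KO and 39 WT cells held 2 UMIs. Of the B cells, which should lack most of this RNA, 1.54% in the Vsig4 KO and 1.75% in the WT library reached the threshold of 3 UMIs, at medians of 2843 and 2496 UMIs. A further 56 Vsig4 KO and 58 WT effector cells entered on a single UMI of Cd8a or Cd8b1.

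**Figure D1:**
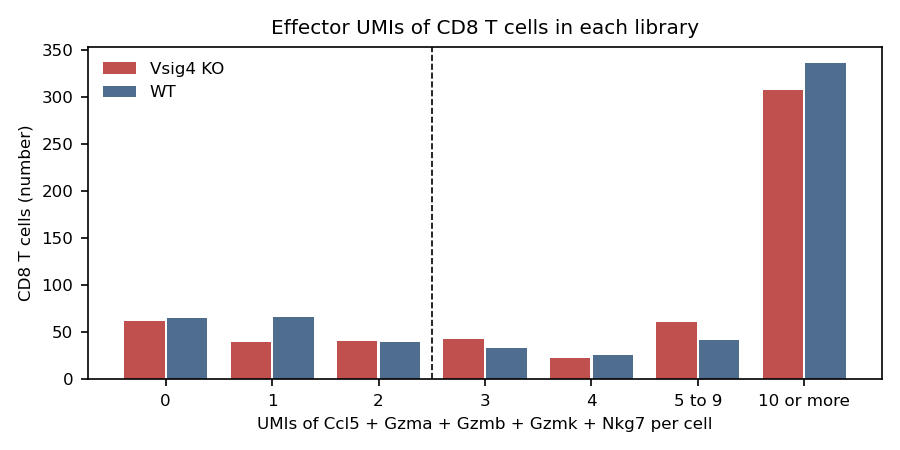
Number of CD8 T cells by the summed UMIs of the 5 effector genes (x axis) in the Vsig4 KO and WT libraries, with the dashed line at the threshold between 2 and 3 UMIs. The bar of 10 or more UMIs is the tallest in both libraries, at 307 Vsig4 KO and 336 WT cells.

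Of the 5 effector genes, the granzymes had more RNA in the Vsig4 KO cells and Nkg7 did not. Since the rule chose cells by these genes, their values describe the cells and support nothing further. Values are UMIs scaled to 1000000 UMIs of genes outside the rule (CPM), and a ratio is Vsig4 KO over WT. Gzma, the gene of granzyme A, stood at 1333 CPM (1288 to 1379) in Vsig4 KO cells and 584 CPM (553 to 617) in WT cells. Its ratio was 2.28 (2.14 to 2.44), with 5 cells holding 31.5% of the Vsig4 KO and 36.9% of the WT UMIs. The ratio was 4.47 when the rule was applied after thinning every cell to 1000 UMIs. That choice kept 167 Vsig4 KO and 190 WT cells. Their levels were still taken from all their UMIs, so the cells changed and the counts were not thinned. Gzmk, a granzyme gene of memory and transitional cells, stood at 218 CPM (201 to 237) in Vsig4 KO and 104 CPM (91.1 to 118) in WT cells. Its ratio was 2.10 (1.80 to 2.46), and 3.40 with the rule after thinning. For Gzmb, which encodes the caspase-cleaving granzyme B, the levels were 479 and 284 CPM in Vsig4 KO and WT cells (1.68, 1.53 to 1.86, and 2.59 with the rule after thinning). The 3 granzyme intervals lay clear of 1, in cells that the rule chose in part by these genes. The chemokine gene Ccl5 was at 8458 CPM in Vsig4 KO and 7327 CPM in WT cells (1.15, 1.13 to 1.18), and Nkg7, a gene of granule release, at 1433 and 1434 CPM (0.999, 0.953 to 1.05). The lineage genes sat closer together, with ratios of 0.790 for Cd8a, 0.951 for Cd8b1, 0.890 for Cd3d, 1.19 for Cd3e and 1.07 for Cd3g.

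A larger share of the Vsig4 KO cells carried granzyme RNA, which is again a description, since the rule chose the cells in part by it. After thinning to 1000 UMIs, with 1 Vsig4 KO and 4 WT cells left out as too shallow, 38.0% (33.4 to 42.7) of 432 Vsig4 KO cells held a UMI of any of the 3 granzymes, against 28.2% (24.0 to 32.7) of 433 WT cells. For Gzma the thinned shares were 20.4% (16.7 to 24.5) in Vsig4 KO and 14.8% (11.6 to 18.5) in WT cells, and for Gzmb 20.6% (16.9 to 24.7) and 15.01% (11.8 to 18.7), so both pairs of intervals overlapped. For Gzmk they were 17.4% (13.9 to 21.3) in Vsig4 KO and 8.31% (5.89 to 11.3) in WT cells, without overlap. Cells with 2 granzyme genes were 12.96% of the Vsig4 KO and 6.70% of the WT cells, and cells with all 3 were 3.70% and 1.62%. Without thinning the shares were 30.5% and 20.8% for Gzma, 36.5% and 28.6% for Gzmb, and 37.0% and 20.4% for Gzmk. A cell with a Gzma UMI held 5.84 Gzma UMIs on average in the Vsig4 KO and 4.47 in the WT library after thinning, while Gzmb (2.19 and 2.09) and Gzmk (1.37 and 1.22) lay closer together. In B cells, which should lack these genes, the thinned shares in the Vsig4 KO and WT libraries were 1.91% and 2.09% for Gzma, 0.337% and 0.358% for Gzmb, and 0% (at most 0.207%) of 1780 and 0.0597% of 1676 cells for Gzmk.

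The granzyme ratios were above 1 in cells with and without a UMI of Cxcr6, a chemokine receptor of tissue T cells, in cells without Klrg1 RNA and in cells without cell cycle RNA. Among the 132 Vsig4 KO and 124 WT effector cells with a Cxcr6 UMI, Gzma was at 2291 CPM in Vsig4 KO and 978 CPM in WT cells (2.34, 2.15 to 2.55). In the same cells Gzmk had a ratio of 2.44 (1.92 to 3.12), with 308 CPM in Vsig4 KO and 126 CPM in WT cells, and Gzmb one of 1.98 (1.75 to 2.25), with 931 and 470 CPM. Among the 301 Vsig4 KO and 313 WT cells without a Cxcr6 UMI the Gzma ratio was 2.07 (1.88 to 2.29), that of Gzmk 1.82 (1.48 to 2.25) and that of Gzmb 1.19 (1.02 to 1.40). In cells without a Klrg1 UMI the ratios were 1.56 for Gzma, 1.45 for Gzmb and 1.56 for Gzmk. Outside the cells with 2 or more UMIs of 10 cell cycle genes they were 1.84, 1.55 and 1.94 in the same order. Other lymphocytes did not share one pattern: Gzma had a ratio of 1.26 in NK cells and 0.894 in effector CD4 T cells, Gzmk 1.43 and 1.71, and Gzmb 1.58 and 0.799. Whether these ratios differ from those of the effector CD8 T cells was not tested.

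The upstream sequences of the 3 granzyme genes are shown because these genes stood higher together. They are 250 bases before the RefSeq start (GRCm38.p6), 5′ to 3′ on the minus strand that carries each gene, with letters that match a searched motif on either strand in capitals.
Gzma (chr13:113100982-113101231): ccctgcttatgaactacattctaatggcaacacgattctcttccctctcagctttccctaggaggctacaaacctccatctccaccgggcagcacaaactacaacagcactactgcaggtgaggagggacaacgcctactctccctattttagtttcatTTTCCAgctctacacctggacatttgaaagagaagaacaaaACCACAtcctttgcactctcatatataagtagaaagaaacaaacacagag
Gzmb (chr14:56262335-56262584): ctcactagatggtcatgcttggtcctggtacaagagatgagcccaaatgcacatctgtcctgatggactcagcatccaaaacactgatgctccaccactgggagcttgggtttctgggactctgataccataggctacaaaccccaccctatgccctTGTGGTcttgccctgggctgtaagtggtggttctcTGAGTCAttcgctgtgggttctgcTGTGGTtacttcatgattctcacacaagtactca
Gzmk (chr13:113180966-113181215): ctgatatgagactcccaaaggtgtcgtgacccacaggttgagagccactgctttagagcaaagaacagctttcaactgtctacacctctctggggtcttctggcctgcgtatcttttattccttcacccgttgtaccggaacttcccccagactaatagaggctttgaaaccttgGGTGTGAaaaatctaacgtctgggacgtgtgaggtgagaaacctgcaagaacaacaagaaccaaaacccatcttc
The search covered 5 motifs on both strands, and no match overlapped another. Gzma held a Runx match that begins 50 bases before the start and an NFAT core match at 91 bases. Gzmb held Runx matches at 93 and 34 bases and an AP-1 match at 58 bases. Gzmk held a T-box core match at 75 bases. Of 32851 upstream windows of the same length, 14.05% hold the Runx letters TGTGGT. The NFAT core, searched as TGGAAA, is in 18.6% of them. The AP-1 letters TGACTCA are in 4.46%. The T-box core TCACACC is in 3.33%. The TATA letters TATAAA, found in none of the 3 windows, are in 12.4%.

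Against the CD8 T cells with an effector sum of 0 to 2 UMIs (141 Vsig4 KO and 170 WT cells), the effector cells carried genes of killing, NK-type receptors, inhibitory receptors and the cell cycle, and less RNA of naive T cell genes. The groups were cut by effector RNA, so this profile is a description. Of 8334 genes, 6.31% were at least 1.5-fold higher in the effector cells of both libraries and 1.94% at least 1.5-fold lower, on the CPM + 10 scale that every such count uses. Among the terminal effector and NK receptor genes, 12 of 15 were higher and 0 lower, and in the cytotoxic granule list 9 of 13 were higher, among them Prf1 (perforin), Gzmm and Fasl. Of 14 inhibitory receptor genes, 8 were higher, with Pdcd1, which encodes PD-1, at 112 CPM in effector and 21.7 CPM in other Vsig4 KO cells, and 98.6 against 4.37 CPM in the WT library. Of 22 proliferation genes, 17 were higher, and of 13 S100 protein and galectin genes, 9. The naive and memory list went the other way, with 11 of 16 lower and 1 higher, the costimulatory receptor gene Cd27.

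The genes farthest above the other CD8 T cells in both libraries began with Xcl1, a chemokine for cross-presenting dendritic cells, at 338 CPM against 18.3 CPM in the Vsig4 KO and 242 against 4.37 CPM in the WT library. Its UMIs were concentrated, with 5 cells holding 55.8% of those in Vsig4 KO and 33.1% of those in WT effector cells. Klrc1, the gene of the inhibitory NK receptor NKG2A, followed at 205 against 13.3 CPM in the Vsig4 KO library, and 107 CPM with 237 UMIs in WT effector cells against 0 UMIs in the other WT cells. Klre1, Klrk1 (NKG2D), Cd160, Klrc2, Ifng (interferon gamma), Fasl (Fas ligand), Tbx21 (T-bet, the factor of effector fate), Hopx, Mki67 (a marker of dividing cells), H1f3 (a linker histone), Hip1, Osbpl3 and Serpina3g completed the 15 highest. At the other end stood Slc28a2b, a nucleoside transporter gene (16.2 against 78.4 CPM in the Vsig4 KO and 19.5 against 138 CPM in the WT library), and Igfbp4, a gene of naive T cells (54.6 against 188 CPM and 33.0 against 152 CPM). Plaur, St8sia1, Auts2, Patj, Tdrp, Ifngr2 (the second chain of the interferon gamma receptor), Ramp1 and Igf1r were the others of the 10 lowest. Residency was uneven: Cxcr6, the receptor that holds T cells in liver sinusoids, was 2.79 and 2.27 times as high in effector as in other cells of the Vsig4 KO and WT libraries, while Itgae (CD103) was at 0.337 and 1.26.

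**Figure D2:**
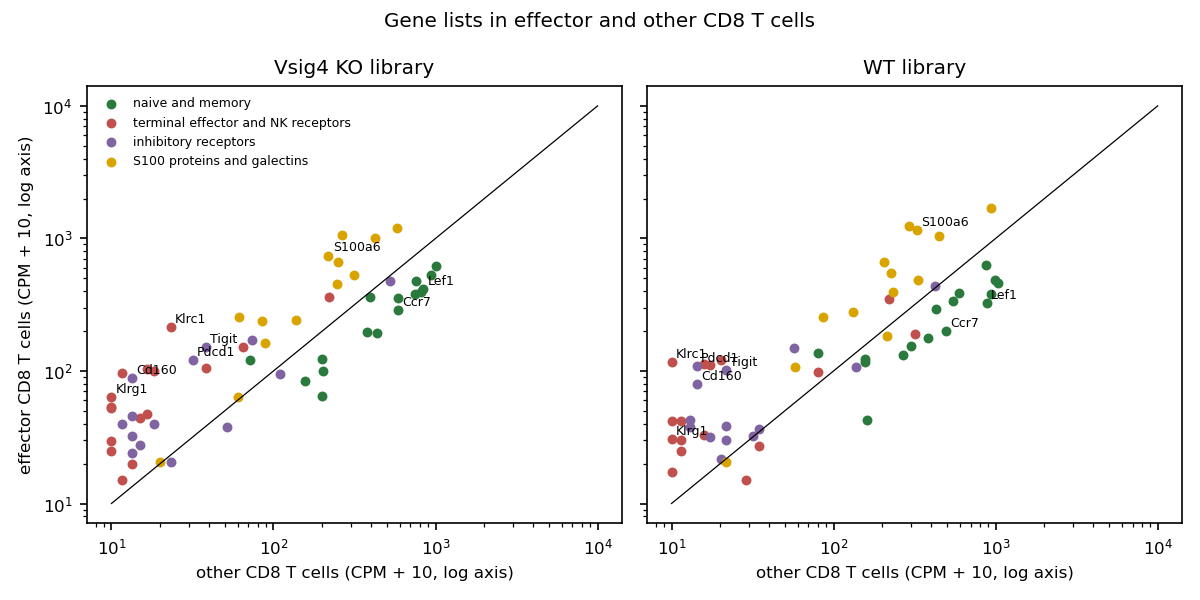
Level of 4 gene lists in effector CD8 T cells (y axis) against other CD8 T cells (x axis), in CPM + 10 on log axes, in the Vsig4 KO library (left) and the WT library (right). Most NK-type and inhibitory receptor genes lie above the diagonal and most naive and memory genes below it, 11 of 16 by at least 1.5-fold in both libraries.

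The effector cells were not uniform, and RNA of single genes split them into overlapping groups. Klrg1 RNA marked one group: cells with a UMI of this receptor of terminal effectors were 15.01% (11.8 to 18.7) of Vsig4 KO and 5.72% (3.74 to 8.33) of WT cells. They were higher in S1pr5, a receptor for exit into blood (ratios of 11.9 and 12.8 in the Vsig4 KO and WT libraries), in Cx3cr1, the fractalkine receptor gene (6.26 and 5.07), and in Zeb2, a factor of terminal differentiation (2.98 and 3.12). Gzma was 4.98 and 2.76 times as high in them, Gzmk 4.73 and 3.90 times, and Il7r 0.277 and 0.263 times. Xcl1 was lower in them, at 0.249 and 0.0618 times.

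Pdcd1 RNA marked another group, 18.5% (14.9 to 22.5) of Vsig4 KO and 16.9% (13.5 to 20.8) of WT cells. Against the cells without it they had 9.35 and 5.21 times the Lag3 level in the Vsig4 KO and WT libraries, 6.27 and 11.1 times that of Havcr2 (TIM-3), 4.46 and 3.35 times that of Tox, the factor of exhausted cells, and 7.04 and 8.15 times that of Tnfrsf9 (4-1BB), a receptor induced by the TCR. Mki67 was 3.23 and 10.8 times as high, and Il7r 0.337 and 0.298 times. Of the rule's own genes, Gzma was at 1.88 times in both libraries and Gzmb at 2.08 and 1.47 times. The rule chose all these cells in part by both genes, so these values are a description. Cells with a Cxcr6 UMI, 30.5% of Vsig4 KO and 28.4% of WT cells, had 4.07 and 2.46 times the Gzmb level, 4.89 and 2.72 times that of Xcl1, and 2.71 and 3.002 times that of Itga1 (CD49a), an integrin of tissue-resident cells. Cells with a UMI of a gene can also be the deeper ones: Pdcd1 cells had medians of 6425 UMIs in the Vsig4 KO and 5594 UMIs in the WT library, against 4757 and 4171 UMIs without it, whereas Klrg1 cells were as deep as the rest in both libraries. The background in B cells was low for both, with thinned shares of 0.169% and 0.119% for Klrg1 and of 0% and 0.119% for Pdcd1.

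**Figure D3:**
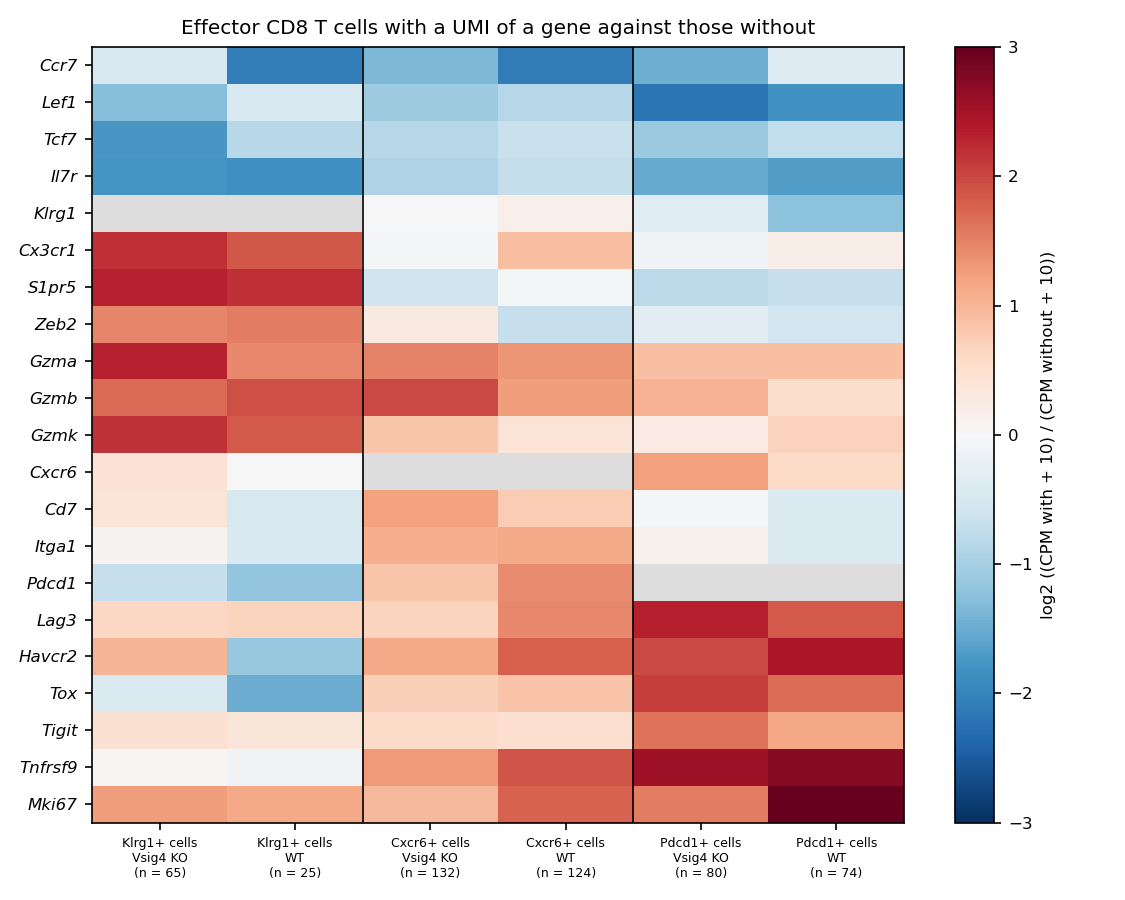
Each column sets the effector CD8 T cells with a UMI of Klrg1, Cxcr6 or Pdcd1 against those without, Vsig4 KO left of WT, as log2 of the ratio of CPM + 10 (colour, cut at 3 and -3; grey where the gene defines the column). The paired columns differ for Havcr2 under Klrg1 (CPM ratios of 2.44 and 0.270) and Zeb2 under Cxcr6 (1.23 and 0.583), among others, with Il7r below 0 for Klrg1 and Pdcd1 and Tox, Lag3 and Havcr2 above 0 for Pdcd1 in both libraries.

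Between genotypes most of the RNA of effector CD8 T cells was alike. Of 7778 genes outside the rule with at least 50 UMIs over both libraries, 91 (1.17%) were at least 1.5-fold higher in the Vsig4 KO cells and 72 (0.926%) at least 1.5-fold lower. The median log2 ratio over these genes was 0.01, and 52.1% were above 1. The gene lists below are read against these shares. With the same cutoff 4.66% of genes were higher and 4.38% lower in the other CD8 T cells, 3.80% and 3.12% in effector CD4 T cells, and 1.91% and 2.54% in NK cells, all of which rest on other numbers of cells and UMIs.

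Among killing genes outside the rule, 1 of 13 measured members of the cytotoxic granule list passed 1.5-fold. This was Serpinb9, the inhibitor with which killer cells protect themselves from granzyme B, at 126 CPM (113 to 141) in Vsig4 KO and 77.4 CPM (66.2 to 89.9) in WT cells, a ratio of 1.63 (1.35 to 1.98). It had ratios of 1.47 in NK cells and 1.52 in B cells. The list's median log2 ratio was 0.13, with 10 of 13 above 1. Perforin did not follow the granzymes: Prf1 stood at 74.4 CPM in Vsig4 KO and 82.8 CPM in WT cells (0.898, 0.729 to 1.11). Fasl was at 91.4 and 67.4 CPM (1.36, 1.098 to 1.68) and Gzmm, the granzyme M gene, at 33.6 and 45.7 CPM (0.736, 0.545 to 0.992).

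The secreted effectors had no common direction. Their list had a median log2 ratio of -0.18 over 9 measured members, with 3 above 1. Ifng was at 129 CPM (116 to 144) in Vsig4 KO and 148 CPM (133 to 165) in WT cells (0.872, 0.745 to 1.02) and Tnf at 32.8 and 43.4 CPM (0.756, 0.557 to 1.02), so both intervals held 1. In cells without a Klrg1 UMI Ifng was at 89.7 CPM in Vsig4 KO and 141 CPM in WT cells (0.638, 0.529 to 0.768), and in those with one at 347 and 277 CPM (1.26, 0.860 to 1.88). Ccl4, an inflammatory chemokine gene, was at 816 and 665 CPM (1.23, 1.15 to 1.31). Its neighbour Ccl3 was the 1 member past 1.5-fold, at 208 CPM in Vsig4 KO and 127 CPM in WT cells (1.64, 1.42 to 1.90), but 5 cells held 57.5% of its Vsig4 KO and 47.3% of its WT UMIs. Ccl3 was at 0.581 without cells holding UMIs of other lineages. Here and below, that choice kept 208 of 433 Vsig4 KO and 219 of 437 WT cells. Ccl1, a chemokine gene outside the lists that is named here because of its values, had 141 UMIs in 5 Vsig4 KO cells and 20 UMIs in 5 WT cells.

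RNA of a pair of inhibitory NK-type receptors was higher in the Vsig4 KO cells. Klrg1 (ENSMUSG00000030114, chromosome 6, 122270596 to 122282882, minus strand, mm10) had 135 UMIs or 53.4 CPM (44.8 to 63.2) in Vsig4 KO cells and 46 UMIs or 20.8 CPM (15.2 to 27.8) in WT cells, and its ratio was 2.57 (1.82 to 3.67). For Klrg1, 5 cells held 28.9% of the Vsig4 KO and 45.7% of the WT UMIs. In thinned cells, 4.86% (3.03 to 7.33) of Vsig4 KO and 1.85% (0.801 to 3.61) of WT cells held a Klrg1 UMI, with intervals that overlap. Klrc1, on the same chromosome at 129666015 to 129678973, had 518 UMIs or 205 CPM (188 to 223) in Vsig4 KO cells and 237 UMIs or 107 CPM (94.0 to 122) in WT cells, a ratio of 1.91 (1.64 to 2.24), and thinned shares of 15.5% (12.2 to 19.3) and 8.55% (6.09 to 11.6). These were the 2 of 15 measured members of the terminal effector and NK receptor list that were higher, 0 were lower, and the list's median log2 ratio was 0.24, or -0.15 over the members with at least 200 UMIs.

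The Klrc1 ratio was 1.98 (1.67 to 2.35) in cells without a Klrg1 UMI and 1.04 (0.688 to 1.61) in the 65 Vsig4 KO and 25 WT cells with one. In NK cells, where both genes are abundant, the Klrg1 ratio was 1.56 and the Klrc1 ratio 1.83, and in effector CD4 T cells 0.759 and 1.60. Cx3cr1 was at 37.2 CPM in Vsig4 KO and 23.1 CPM in WT effector cells (1.61, 1.13 to 2.31, and 4.31 without cells holding UMIs of other lineages). S1pr5 had 38 UMIs in Vsig4 KO and 16 UMIs in WT cells (2.08, 1.13 to 3.99). Klrk1, the gene of the activating receptor NKG2D, was at 0.853 (0.710 to 1.02) and Klrc2, that of the activating NKG2C, at 1.37 (1.006 to 1.87). Klre1 was at 0.836 (0.691 to 1.01) and Klrd1, the partner of NKG2A, at 1.03 (0.937 to 1.14). Of the factors of this state, Tbx21 had a ratio of 0.890 (0.737 to 1.07), Eomes 1.11 (0.885 to 1.39) and Zeb2 1.08 (0.895 to 1.32). For Zeb2, 5 cells held 50.3% of the WT UMIs and 24.4% of the Vsig4 KO UMIs, and outside the cells with cell cycle UMIs it was at 1.65 (1.29 to 2.13).

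**Figure D4:**
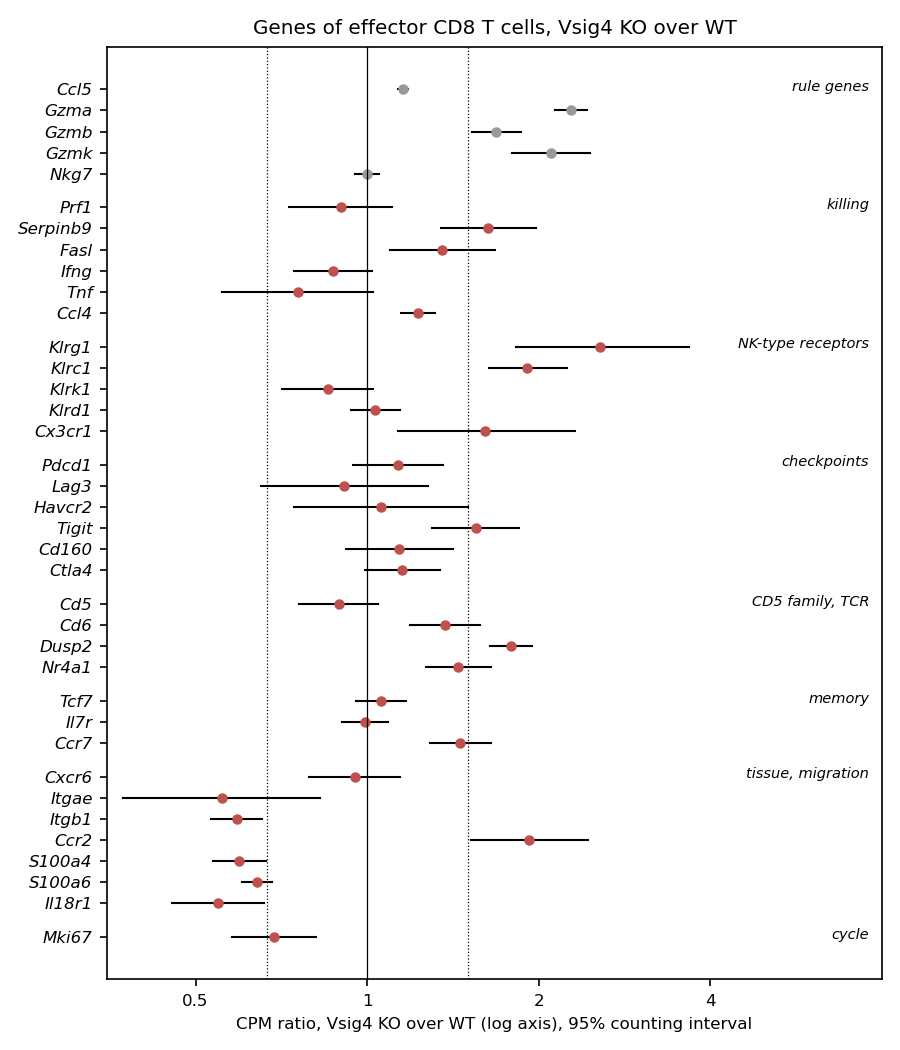
CPM ratio of Vsig4 KO over WT effector CD8 T cells for single genes (log axis), with 95% counting intervals as bars, grey points for genes of the rule, a solid line at 1 and dotted lines at 1.5-fold either way. Gzma, Gzmb, Gzmk, Klrg1, Klrc1, Dusp2 and Ccr2 lie right of the upper dotted line with their whole interval, and Itgb1, S100a4 and Il18r1 left of the lower one.

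Most checkpoint genes differed by less than 1.5-fold. Of 14 measured inhibitory receptor genes 0 were at least 1.5-fold higher on the CPM + 10 scale and 1 lower, with a list median of 0.09. Pdcd1 was at 112 CPM in Vsig4 KO and 98.6 CPM in WT cells (1.13, 0.944 to 1.36), Lag3 at 29.7 and 32.6 CPM (0.911, 0.650 to 1.28), Havcr2 at 29.7 and 28.1 CPM (1.06, 0.745 to 1.51) and Tox at 233 and 231 CPM (1.01, 0.895 to 1.14). The interval of Havcr2 reaches 1.51, so counting error alone leaves a 1.5-fold difference possible. Without cells holding UMIs of other lineages Lag3 was at 0.420 and Havcr2 at 0.647. Over the alternatives described below, the Pdcd1 ratio ran between 1.02 and 1.69, so it passed 1.5-fold in part of them. Tigit, an inhibitory receptor for nectin-like ligands, was at 142 CPM (127 to 157) in Vsig4 KO and 91.4 CPM (79.2 to 105) in WT cells (1.55, 1.30 to 1.85), and its ratio was also 1.55 in NK cells. The 1 lower gene was Lair1, a collagen receptor, with 27 UMIs in Vsig4 KO and 49 UMIs in WT cells (0.482, 0.290 to 0.786), and 0.326 in B cells. Cd160 (1.14) and Ctla4 (1.15) had intervals that held 1.

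Cd5, the gene of the series title, had 313 UMIs in Vsig4 KO and 307 UMIs in WT cells, or 124 CPM (110 to 138) and 139 CPM (124 to 155). Its ratio of 0.891 had an interval of 0.759 to 1.05, but over the alternatives described below it ran between 0.859 and 1.28. Thinned shares were 10.2% (7.499 to 13.4) of Vsig4 KO and 11.8% (8.90 to 15.2) of WT cells. Its relative Cd6, a receptor that binds CD166, was at 199 CPM (182 to 218) in Vsig4 KO and 146 CPM (130 to 163) in WT cells, a ratio of 1.37 (1.19 to 1.58). The Cd6 ratio was 2.32 (1.55 to 3.54) in other CD8 T cells, 1.44 in effector CD4 T cells and 2.17 in all other cells. Its thinned shares, 19.9% (16.2 to 24.0) and 15.7% (12.4 to 19.5), overlapped. Of the 26 measured genes of CD5 and TCR signalling 0 passed 1.5-fold in either direction, 13 were above 1 and the median log2 ratio was 0.01, that of all genes.

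Genes that the TCR induces within hours leaned higher. Of 18 measured members of that list 15 were above 1, the median log2 ratio was 0.21, and 1 passed 1.5-fold: Dusp2, a phosphatase that acts on MAP kinases, at 651 CPM (620 to 683) in Vsig4 KO and 365 CPM (340 to 391) in WT cells (1.79, 1.64 to 1.94). Nr4a1 (Nur77), the classical reporter of TCR signals, was at 242 and 167 CPM (1.45, 1.27 to 1.65). The list was at 0.17 in other CD8 T cells, 0.33 in NK cells, 0.24 in effector CD4 T cells and -0.05 in B cells, and Dusp2 had ratios of 1.72, 2.55, 1.76 and 1.36 there. Genes that tissue digestion can also induce moved with it in part: Btg2, an early response gene, was higher (460 and 282 CPM in Vsig4 KO and WT cells; 1.63, 1.48 to 1.80), while the heat-shock genes Hspa1a (403 and 735 CPM; 0.549, 0.507 to 0.594) and Hspa1b (695 and 1088 CPM; 0.638) were lower. The stress list as a whole had a median of -0.04 over 17 members, and the AP-1 list 0.24 over 9. The part of the digestion in these values was not tested.

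Memory genes were split. The naive and memory list had a median of 0.08 with 10 of 16 above 1, and -0.19 when the rule was applied after thinning. Ccr7, the gene of a lymph node chemokine receptor, stood at 276 CPM in Vsig4 KO and 190 CPM in WT cells (1.46, 1.29 to 1.65) and Lef1 at 407 and 316 CPM (1.29, 1.17 to 1.42). Tcf7, the factor of stem-like cells, at 343 and 324 CPM (1.06, 0.956 to 1.17), and Il7r, at 371 and 374 CPM (0.992, 0.902 to 1.09), did not stand apart. Igfbp4 was the 1 member past 1.5-fold, with 138 UMIs in Vsig4 KO and 73 in WT cells (1.65, 1.24 to 2.23, and 3.02 with the rule after thinning). So the Vsig4 KO effector cells held both more Ccr7 RNA and more Klrg1 RNA.

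S100a4, S100a6 and Capg were lower in the Vsig4 KO cells. S100 protein and galectin genes, which accompany migration and effector differentiation, had a median log2 ratio of -0.19, with 3 of 13 at least 1.5-fold lower and 3 above 1. S100a6 was at 733 CPM (700 to 767) in Vsig4 KO and 1142 CPM (1098 to 1187) in WT cells (0.642, 0.604 to 0.682), S100a4 at 229 and 384 CPM (0.596, 0.536 to 0.663, and 0.365 without cells holding UMIs of other lineages), and Capg, an actin-capping protein gene, at 53.4 and 96.4 CPM (0.554, 0.443 to 0.691). S100a6 was also lower in other CD8 T cells (0.653), effector CD4 T cells (0.618) and B cells (0.681), and S100a4 in the first 2 of these at 0.339 and 0.680 and in NK cells at 0.592. Capg lay near 1 in them, at 1.04, 0.945 and 0.976, and at 0.822 in NK cells. Within the effector CD8 T cells, S100a6 was at 1.02 (0.856 to 1.22) in cells with a Klrg1 UMI and 0.550 in those without. In cells with cell cycle UMIs it was at 0.958 (0.859 to 1.07), and outside them at 0.540. For S100a4 the values were 0.741 (0.550 to 1.01) and 0.535 by Klrg1, and 0.874 (0.721 to 1.06) and 0.506 by cell cycle.

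Itgb1, the common beta chain of the collagen- and fibronectin-binding integrins, was at 242 CPM (223 to 262) in Vsig4 KO and 410 CPM (384 to 438) in WT cells (0.591, 0.532 to 0.655), and its ratio was below 1 both in cells with and in cells without a Cxcr6 UMI (0.470 and 0.678). Its ratio was 0.944 in other CD8 T cells, 1.101 in effector CD4 T cells, 1.19 in NK cells and 0.820 in B cells. Itgae had 44 UMIs in Vsig4 KO and 69 UMIs in WT cells (0.557, 0.373 to 0.825), and among cells with a Cxcr6 UMI 8 and 30 UMIs (0.218, 0.0864 to 0.487). Among cells without a Cxcr6 UMI it had 36 and 39 UMIs (0.836, 0.516 to 1.35), with an interval that held 1. In cells with an effector sum of 10 or more it had 13 and 59 UMIs (0.206, 0.103 to 0.379). Most of its Vsig4 KO UMIs thus lay in cells below that sum, and most of its WT UMIs in cells at or above it. The residency list was otherwise level or higher, with a median of 0.21, and Cxcr6 at 97.7 and 103 CPM (0.951, 0.791 to 1.14). Ccr2, the receptor for monocyte chemokines that also brings effector T cells into tissue, was at 92.2 CPM (80.7 to 105) in Vsig4 KO and 48.0 CPM (39.3 to 58.0) in WT cells (1.92, 1.52 to 2.44), against 0.956 in NK cells and 1.37 in effector CD4 T cells.

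Receptors for inflammatory cytokines moved apart. Il18r1, a chain of the receptor for interleukin 18, was at 74.4 CPM (64.1 to 85.8) in Vsig4 KO and 136 CPM (121 to 152) in WT cells (0.548, 0.454 to 0.660), and its ratio lay between 0.531 and 0.553 in cells with or without Cxcr6 or cell cycle UMIs. It was 0.240 (0.111 to 0.504, from 14 and 19 UMIs) in cells with a Klrg1 UMI and 0.603 (0.496 to 0.731) in those without. In other CD8 T cells it was 1.47, in effector CD4 T cells 1.11 and in NK cells 1.15. Il21r, the receptor gene for interleukin 21, was at 150.3 CPM in Vsig4 KO and 91.9 CPM in WT cells (1.64, 1.38 to 1.95) and had a ratio of 1.67 in NK cells. The other 14 of 16 measured cytokine receptor genes stayed within 1.5-fold.

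Of the metabolic, interferon and proliferation lists, 1 gene passed 1.5-fold, although some medians lay away from 0. Glycolysis and hypoxia genes had a median of 0.17 with 14 of 18 above 1 and 0 past 1.5-fold, and oxidative phosphorylation genes -0.04 over 25. The type I interferon list stood at -0.12 over 19 members and the interferon gamma and MHC class I list at -0.04 over 24, and its Irgm2, an immunity-related GTPase, was the gene past 1.5-fold, at 58 UMIs in Vsig4 KO and 99 UMIs in WT cells (0.512, 0.364 to 0.715). The survival list had a median of 0.12 over 15 members, the chemokine receptors 0.26 over 11, the adhesion list -0.04 over 13 and the exhaustion and memory factors 0.07 over 20. In the last, 1 member passed 1.5-fold: Bhlhe40, a factor of cytokine production, at 231 and 145 CPM (1.59, 1.39 to 1.83). Proliferation genes leaned lower, with a median of -0.21, 4 of 22 above 1 and 0 past 1.5-fold. Mki67 was at 96.9 CPM in Vsig4 KO and 141 CPM in WT cells (0.686, 0.578 to 0.814), while the cells holding 2 or more UMIs of 10 cell cycle genes were 11.1% (8.29 to 14.4) of the Vsig4 KO and 9.61% (7.01 to 12.8) of the WT cells. For Mki67, 5 cells held 46.1% of the Vsig4 KO and 44.2% of the WT UMIs, and its ratio was 2.33 without cells holding UMIs of other lineages.

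Most of the 12 highest genes outside the rule were also higher in other lymphocytes. Cdk5rap1 had 97 UMIs in Vsig4 KO and 6 UMIs in WT cells, a ratio of 14.1 (6.26 to 39.5), and ratios of 6.41 in other CD8 T cells, 9.52 in NK cells and 8.40 in B cells. Slc15a2, a peptide transporter gene, was at 2.93 (2.27 to 3.81) and in B cells at 3.15. Gm42031, Gm49980, Fam177a, D130009I18Rik, AC149090.1, Ube2v1, Camk2b, Cd74 and Klrg1 were also among them. Cd74, the MHC class II invariant chain, was at 748 CPM in Vsig4 KO and 315 CPM in WT cells (2.37, 2.18 to 2.59), but 5 cells held 75.7% of its Vsig4 KO UMIs, and its ratio was 0.677 without the cells with the highest doublet scores. The 10 B cell markers summed to 1945 UMIs in 148 Vsig4 KO cells and 783 UMIs in 133 WT cells. Cd74 alone gave 1890 of these UMIs in the Vsig4 KO and 696 in the WT cells, so it made up most of both sums. The dendritic cell markers summed to 1878 and 1079 UMIs, the NK cell markers to 1870 and 1709 UMIs, and the monocyte and macrophage markers to 761 and 932 UMIs. The NKT cell markers summed to 771 UMIs in Vsig4 KO and 698 UMIs in WT cells, the CD4 and regulatory T cell markers to 1119 and 832, the gamma-delta markers to 54 and 66, with Sox13 at 0 in both, and the endothelial and stromal markers to 130 and 125. Neutrophil (42 and 29 UMIs), hepatocyte (7 and 24), melanoma (26 and 21) and erythroid (89 and 58) markers were rare. Their part in the ratios was tested only by leaving cells out, as given beside the genes.

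Among the 12 lowest, Trat1, an adaptor that stabilises the TCR complex at the surface, was level in other T cells. It had 53 UMIs in Vsig4 KO and 154 UMIs in WT cells (0.301, 0.216 to 0.414), beside 1.04 in other CD8 T cells, 1.01 in effector CD4 T cells and 2.60 in NK cells. Ctse, a protease gene, was at 46.3 CPM in Vsig4 KO and 122 CPM in WT cells, with an interval of the ratio of 0.303 to 0.474, and lower in other CD8 T cells (0.602), effector CD4 T cells (0.425), NK cells (0.421) and B cells (0.309) too. The transcript Gm47283, placed on chromosome Y, was at 22 and 285 UMIs (0.0675, 0.0416 to 0.104) and at 0.0829 in B cells. Of 4 measured sex-linked marker genes, 1 was above 1 and 3 below. Eif2s3y was past 1.5-fold lower, at a log2 ratio of -0.708, while the Y-linked gene Ddx3y had a UMI in 105 Vsig4 KO and 110 WT cells. Rell1 (0.425), Gprin3 (0.433), Cpm (0.518), Rhob (0.534) and Atxn1 (0.590) were the others beside Hspa1a, Il18r1, Capg and Itgb1.

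The variable segments of the TCR transcripts were spread over many genes, with more repeated pairs in the Vsig4 KO cells. A Trbv (beta chain) segment could be assigned in 89.6% of Vsig4 KO and 80.3% of WT effector cells, and the effective number of segments was 14.7 and 15.6. The most used were Trbv13-2 in 10.8% of assigned Vsig4 KO cells and Trbv13-1 in 10.3% of assigned WT cells. Trbv29 was used by 9.54% (6.80 to 12.9) of Vsig4 KO and 5.98% (21 of 351) of WT cells, and Trbv14 by 1.80% (0.728 to 3.68) of Vsig4 KO and 5.98% (21 of 351) of WT cells. A Trav (alpha chain) segment was assigned in 65.4% of Vsig4 KO and 43.7% of WT cells.

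Both segments were known in 263 Vsig4 KO and 159 WT effector cells. Pairs seen in 3 or more cells were 13 in the Vsig4 KO library, with 60 cells or 22.8% (17.9 to 28.4), and 2 in the WT library, with 6 cells or 3.77% (1.40 to 8.03). Since this share grows with the number of cells, the chance that a random couple of cells has the same pair was also taken. It was 0.546% in Vsig4 KO and 0.167% in WT effector cells, against 0.102% of 63 and 0% of 43 other CD8 T cells. The product of the separate chances for Trav and Trbv was 0.166% in Vsig4 KO and 0.127% in WT effector cells. Segments are not clonotypes, near-identical Trav copies such as those of the Trav9 group can share reads, and the assigned share differed between the libraries.

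The most frequent pair was Trav19 with Trbv29, in 14 Vsig4 KO effector cells (5.32%, 2.94 to 8.77) and 1 WT effector cell, and in 0 of 63 other CD8 T cells and 0 of 100 effector CD4 T cells of the Vsig4 KO library, while 2 of 613 Vsig4 KO cells outside the effector CD8 T cells held it. Of these 14 cells, 6 held a Klrg1 UMI and 0 a Pdcd1 UMI. Against the other 419 Vsig4 KO effector cells they had 3.31 times (2.85 to 3.84) the level of Ly6c2, a surface marker of effector and central memory cells, 3.82 times (2.14 to 6.40) that of Eomes, 3.07 times (1.75 to 5.03) that of Ccr2, 2.88 times (2.02 to 4.01) that of Gzmk and 2.78 times (1.24 to 5.45) that of Klrg1. Ccr7 also had 0 UMIs in them, and Xcl1 was at 0.0914 times. Without these 14 cells and the 1 WT cell, a choice made after seeing the data, the ratio was 2.26 for Gzma, 2.03 for Gzmk, 1.65 for Gzmb, 2.56 for Klrg1 and 1.87 for Klrc1.

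**Figure D5:**
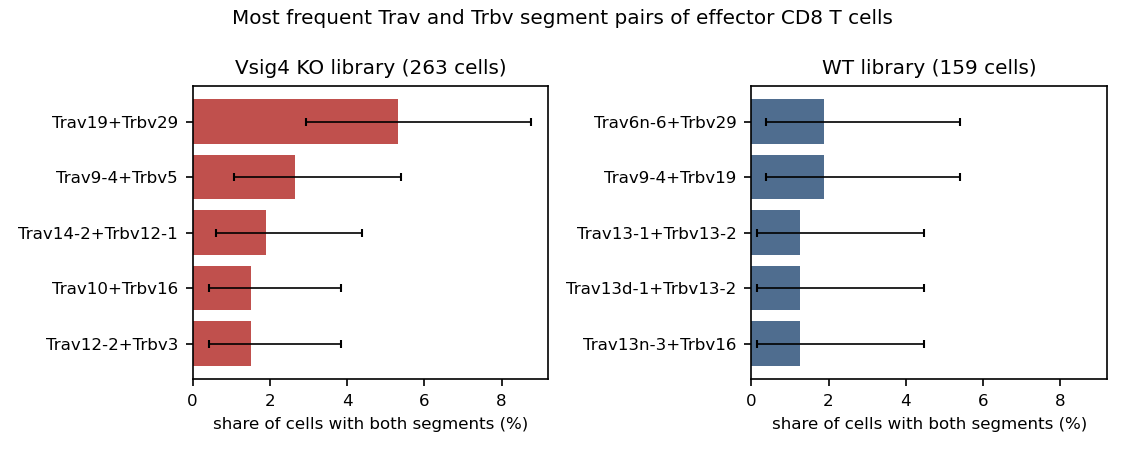
The 5 most frequent pairs of Trav and Trbv segments among effector CD8 T cells with both segments, Vsig4 KO library (left, 263 cells) and WT library (right, 159 cells), as a share of cells (%) with 95% Clopper-Pearson intervals. Trav19 with Trbv29 reaches 5.32% in the Vsig4 KO library, and no WT pair exceeds 1.89%.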

How the data were processed

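The authors deposited 1 matrix of raw UMI counts per library, made with Cell Ranger 7.1.0 on mm10, per the submitters' processing notes; the values are whole-number counts of gene expression for 31253 genes, and receptor sequencing and feature barcodes were not analysed here. Positions come from GENCODE M21 (31184 genes matched by identifier); 43 symbols occur more than once, and the row with the most UMIs was used.

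A barcode counted as a cell with 200 or more genes, 500 or more UMIs and no more than 10% of UMIs from mitochondrial genes, which left 5746 in the Vsig4 KO and 6872 in the WT library. UMIs were summed over the cells of a population and scaled to CPM without the 12 genes of the rule. Cells are not replicates, so no model was fitted. Shares carry Clopper-Pearson, CPM exact Poisson and ratios exact conditional binomial intervals at 95%, which cover counting error only. Effector CD8 T cells held 2566424 UMIs in the Vsig4 KO and 2238943 in the WT library. Genes with at least 50 UMIs over both libraries were counted, at a fold of 1.5 on CPM + 10, and list medians are of log2 of that ratio. For shares, cells were thinned to 1000 UMIs (seed 1), shallower cells left out. Comparison cells came from gates too: other CD8 T cells (effector sum of 0 to 2), effector CD4 T cells (a Cd4 UMI in place of CD8), NK cells (Ncr1 or Klrb1c, no CD3 or Cd79a UMI, effector sum of 3 or more) and B cells (Cd79a with Ms4a1 or a gene not reported here, no CD3 UMI). A split of the effector cells by a further gene is not reported here either, so the groups of cells described are not all those computed.

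Scrublet, run by scanpy 1.11.5, marked 1 Vsig4 KO and 0 WT cells by its own threshold and so did not work; doublets were kept, and leaving out the highest scores was an alternative. Other alternatives changed the rule, the scaling, the pseudocount and the count minimum. Genes were named by a fixed rule: the 12 highest and 12 lowest ratios among genes with a UMI in at least 10% of cells of 1 library, the 15 highest and 10 lowest against other CD8 T cells, up to 4 per list, the genes of the rule, and Cd5, Cd6, Pdcd1, Lag3, Havcr2, Tigit, Tox, Tcf7, Ifng, Tnf, Prf1 and Mki67. Genes given beside these (Klrk1, Nr4a1, S1pr5, Ddx3y and others) were picked after their values were seen. The cells, the 37 gene lists and the rules were all chosen with earlier results of these data known. Mx1 and 3 gamma-chain constant genes of the lists had no row under those symbols. The interval and counting steps were run on simulated independent Poisson counts without differences between cells. Those are the counts that the intervals assume, so the run checked the computation only. Computation used Python 3.11.15, numpy 2.4.6, scipy 1.17.1, pandas 2.3.3 and matplotlib 3.10.9.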

Additional observations from a re-analysis of the deposited data

Results flagged for a closer look

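Ratios of 3 genes were at least 1.5-fold from 1 in effector CD8 T cells and at least 1.5-fold the opposite way in other CD8 T cells, NK cells or effector CD4 T cells, with both counting intervals clear of 1. Genes with smaller opposite differences, such as Itgb1 (0.591, and 1.19 in NK cells), are not counted here. The difference was not tested for any of them, since each genotype has 1 library. Cd74, the MHC class II invariant chain, had a ratio of 2.37 in effector CD8 T cells, 0.449 in other CD8 T cells and 0.656 in NK cells. Ccl3 had a ratio of 1.64 in effector CD8 T cells and 0.245 in other CD8 T cells. Bhlhe40 had a ratio of 1.59 in effector CD8 T cells and 0.526 in other CD8 T cells.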

How the results depend on the processing

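No paired analysis was possible because each genotype has 1 library; for the same reason no replicate could be left out. The share ratio of effector CD8 T cells lay within 1.04 and 1.19 under its 13 alternatives. Counts of genes past 1.5-fold, 91 higher and 72 lower, also depended on the cells used. They were 138 and 133 with the rule applied after thinning, which kept 167 Vsig4 KO and 190 WT cells. Without cells holding a UMI of 12 genes of other lineages they were 170 and 109, from 208 Vsig4 KO and 219 WT cells. With Cst3 not counted among the 12 genes, 332 Vsig4 KO and 337 WT cells were left. Without cells holding cell cycle UMIs 142 were higher. Taking the mean over cells gave 111 lower, and CPM without mitochondrial, ribosomal and receptor segment genes 116 lower. A minimum of 200 UMIs left 32 higher and 24 lower, and a fold of 2 left 20 and 12. The naive and memory median was -0.19 with the rule after thinning, 0.31 without cells holding UMIs of other lineages, and -0.0933 at an effector sum of 10 (added after seeing the data). The cause of these moves was not tested. Of the other list medians, secreted effectors ran between -0.50 and 0.37, proliferation between -0.31 and 0.31, residency between -0.22 and 0.47 and AP-1 between -0.20 and 0.27.

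The alternatives were followed for a chosen set of genes only. Among those at least 1.5-fold from 1 on the CPM ratio, the ratios of Cd74, Ccl3 and Ccl1 turned below 1. Cd74 was at 0.980 with the rule after thinning, 0.677 without the highest doublet scores, 0.907 without cells holding UMIs of other lineages and 0.918 without cells of 3 or more MHC class II UMIs. Ccl3 was at 0.581 without other-lineage UMIs and 0.798 with Cst3 not counted among them. Ccl1 was at 0, 0.123 and 0.238 without other-lineage cells, without cell cycle cells and with Cst3 not counted. Of 1038 gene ratios under alternatives, these 9 turned and 94 others moved beyond their counting interval. Ratios nearer 1 crossed it as well: Mki67 (0.686) reached 2.33, Havcr2 (1.06) 0.647, Tcf7 (1.06) 0.783 and Tox (1.01) 0.939, among others. Klrg1 stayed between 2.07 and 2.70, Klrc1 between 1.78 and 2.09, Itgb1 between 0.552 and 0.732 and Il18r1 between 0.452 and 0.574. Gzma ran between 1.66 and 4.47, Gzmk between 1.86 and 3.40 and Gzmb between 1.34 and 2.59. These 3 granzyme genes belong to the rule, so their ranges describe the chosen cells only. Without other-lineage cells Rell1 was at 0.164, Hspa1a at 0.351 and Hspa1b at 0.419, and Gm42031 was at 6.47; Gm49980 was at 5.33 with the rule after thinning, and Cdk5rap1 ran between 8.82 and 34.9. Depth limits Havcr2, Lag3, S1pr5 and Itgae, which have few UMIs in either library.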
